A study of Rattus norvegicus with 4 samples.

Results

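NF-kB is a family of transcription factors whose subunits share a DNA-binding Rel homology domain, and the genes described here are 10 that encode these subunits or proteins that restrain them. The members were fixed by name as Rela, Rel, Relb, Nfkb1 and Nfkb2 for the subunits and Nfkbia, Nfkbib, Nfkbie, Nfkbiz and Tnfaip3 for the inhibitors. A member counted as measured where the RefSeq accession of an array probe leads to its symbol, whatever its signal. The list of members was drawn up with earlier results of these data known. Of the 10 genes, 6 were measured, by 7 of the 45598 probes, among 16581 named genes. No probe accession led to Rel, Relb, Nfkbiz or Tnfaip3, so these 4 genes have no value below and nothing is said of their expression. Rel and Relb encode the subunits c-Rel and RelB, Nfkbiz a nuclear IkB-like protein that can also coactivate, and Tnfaip3 the ubiquitin-editing enzyme A20.

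The cells were NR8383, a rat alveolar macrophage line that grows partly attached and partly floating. Total RNA came from 4 biological replicates in 1 group, cultured for 48 h, at 20 passages, and exposed for 4 h to 1.2 cm²/cm² of the NH2-functionalized carbon nanotube NRCWE049. The series was designed to set exposed against unexposed cells, and the unexposed samples were not analysed here. The values therefore describe exposed cells and cannot show what the nanotubes changed.

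In resting cells most NF-kB dimers are held in the cytoplasm by inhibitor of kappa B (IkB) proteins. In the canonical pathway, signals from Toll-like, interleukin-1 and tumour necrosis factor receptors activate the IKK kinase complex, which phosphorylates IkB so that it is ubiquitinated and degraded, and the released dimers enter the nucleus. NF-kB then drives the genes of several of its own inhibitors, which ends the response. In macrophages it is a main route to cytokine and chemokine transcription, and because its own control is largely by protein release, the level of a subunit's mRNA is not a measure of NF-kB activity.

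The sites that NF-kB binds, called kappa B sites, also stand before some of its own genes, which is why the promoter sequences of the members are shown. RefSeq promoter sequences of the GRCr8 rat build were found for 9 of the 10 members, Relb being without an entry. The 250 bases before the start site were searched on both strands for the kappa B consensus. It was spelled GGGRNNYYCC, where R is A or G, Y is C or T and N is any base. It was present before 6 of the 9 genes and in 6.41% of all 27457 promoters of this length. The windows of 30 bases below are written on the strand of the gene, 5′ to 3′, with every matching base of the consensus in capitals. A match that lies on the opposite strand appears as its complement read along the gene.
Nfkb2, chr1:255108344-255108373, plus strand: tggtattttcGGGACTTTCCtaagagcact
Nfkbia, chr6:78597084-78597113, minus strand: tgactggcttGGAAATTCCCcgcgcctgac
Nfkbie, chr9:22948017-22948046, minus strand: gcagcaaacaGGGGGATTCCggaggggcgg
Nfkbiz, chr11:58251691-58251720, plus strand: cggtatctttttggcctGGGAATTTCCagc
Rel, chr14:101922138-101922167, minus strand: gcgcgcccccGGGAGCTCCCCgcgcgagcg
Rel, chr14:101922001-101922030, minus strand: cgtaggcagcGGGAAATCCCCccccgttcc
Tnfaip3, chr1:15544130-15544159, minus strand: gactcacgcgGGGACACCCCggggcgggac
Tnfaip3, chr1:15544021-15544050, minus strand: gactGGAAAGTCCCtcGGAAATCCCCctgt

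The matches differed in number and place between the genes. Nfkb2 had 1 match, from 20 to 11 bases before the start, Nfkbia 1 from 31 to 22 bases before it, and Nfkbie 1 from 164 to 155 bases before it. Tnfaip3 had 4 matches at 3 places and Rel 6 overlapping matches at 2 places, where the near-palindromic letters match on both strands. No match was found in the windows of Nfkb1, Rela and Nfkbib, which says only that these letters are not in those 250 bases. A looser form of the motif, which fixes only its outer G and C bases, was present before 8 of the 9 genes and in 43.5% of all promoters. Several of the spans searched were rich in G and C, from 57.2% for Nfkbiz to 80.4% for Rel, and the motif is itself rich in G and C. For Nfkb1, Nfkb2, Nfkbia and Rel the start in the table lies inside the annotated gene, by 435, 2364, 235 and 386 bases. For Tnfaip3 and Nfkbiz it does so by 14 and 1. The windows of these genes can overlap another transcript form. A match is a run of letters and was not tested for binding.

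**Figure D1:**
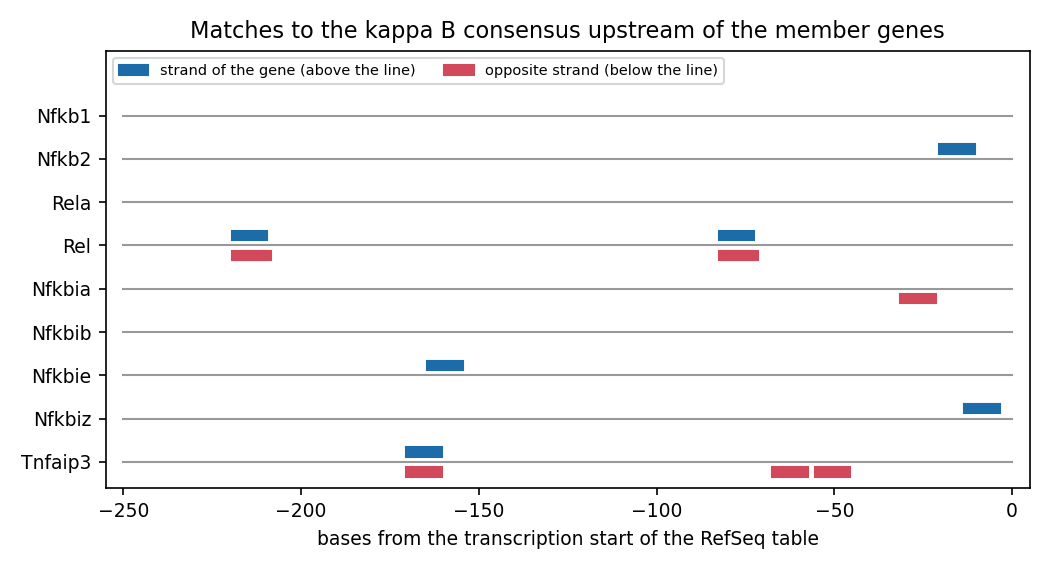
Positions of matches to the kappa B consensus in the 250 bases before the start of 9 member genes, in bases from the start in the RefSeq table. Boxes above a line are on the strand of the gene and boxes below it on the opposite strand. Nfkb1, Rela and Nfkbib have no box, Nfkb2, Nfkbia, Nfkbie and Nfkbiz have 1 each, and Rel and Tnfaip3 have several.

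The whole 250 bases before Nfkbie and Rela are given as a pair with and without the consensus, since for both the table's start is the edge of the annotated gene. In the Nfkbie sequence the capitals mark the consensus match, and the Rela sequence holds none.
Nfkbie, GRCr8 chr9:22947873-22948122, minus strand: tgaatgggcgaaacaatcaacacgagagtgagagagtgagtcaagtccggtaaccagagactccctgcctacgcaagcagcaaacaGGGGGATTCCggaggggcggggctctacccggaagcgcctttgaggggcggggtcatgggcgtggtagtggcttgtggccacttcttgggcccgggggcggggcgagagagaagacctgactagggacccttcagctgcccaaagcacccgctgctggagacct
Rela, GRCr8 chr1:212354086-212354335, plus strand: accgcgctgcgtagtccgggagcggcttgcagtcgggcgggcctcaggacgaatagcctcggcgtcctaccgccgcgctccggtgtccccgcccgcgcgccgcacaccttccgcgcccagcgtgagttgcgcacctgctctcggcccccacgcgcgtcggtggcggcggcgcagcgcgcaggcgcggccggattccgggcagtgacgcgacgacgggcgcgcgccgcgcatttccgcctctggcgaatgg

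Each array held 62976 spots, and 19143 to 19311 of the 45598 probes per array carried Agilent's flag for a signal well above background. Of 12 macrophage markers, 11 were measured and 11 were detected on all 4 arrays, among them Csf1r for the CSF1 receptor, Cd68 for a glycoprotein of lysosomes and Spi1 for the myeloid factor PU.1. None of 6 epithelial, 4 measured lymphocyte, 6 fibroblast and endothelial and 5 measured neutrophil markers was detected on all 4 arrays. Dcn, a proteoglycan gene of fibroblasts, was the one detected on any, on 1 array. These counts hold for the listed markers only. Related genes outside the lists were detected on all 4 arrays, among them Cd3d for lymphocytes, Cdh5 for endothelium and Cxcr1 for neutrophils. The number of arrays limits the precision of what follows.

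All 6 measured members were well above background on all 4 arrays, where 52.5% of named genes were. All 28 member spots, 7 probes on 4 arrays, carried the flag, and none of them was marked as an outlier. Signals below are Agilent's processed Cy3 intensities, and a level is the log2 signal minus the log2 75th percentile of the detected probes on the same array. Levels follow 1 probe between replicates and are not set against another probe's. In such a bulk measurement, fewer cells that express a gene and less RNA per cell cannot be told apart.

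Rela encodes p65, the subunit that carries the main transactivation domain of the canonical dimer. Its signal was 2681, 2362, 2936 and 2713 in replicates 1 to 4, at 59.7 to 77.8 times the local background by the median spot brightness. After scaling, the level was 0.28 ± 0.12 (SD, n = 4), highest in replicate 1 at 0.44 and lowest in replicate 4 at 0.17. The order of the raw signals was thus not the order of the levels, because replicates 3 and 4 were brighter arrays (75th percentile of 2493.2 and 2402.5 against 1969.6 and 1980.1). The highest level was 1.21 times the lowest, and without replicate 1 it was 1.06 times the lowest.

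Nfkb1 encodes p105, a precursor with IkB-like ankyrin repeats that is processed to the DNA-binding subunit p50. It was measured by a bright and a dim probe of the same accession. The bright probe read 874.8, 871.8, 1126 and 1364 in replicates 1 to 4, and its level was -1.08 ± 0.18 (SD, n = 4). Replicates 1 to 3 lay within 1.03-fold of each other, from -1.18 to -1.15, and replicate 4 stood above them at -0.82. The dim probe read 88.48, 86.92, 89.63 and 123.6, only 3.23 to 3.88 times its local background, with a level of -4.52 ± 0.21. Replicate 4 was also the highest by the dim probe (-4.28), but its lowest was replicate 3 (-4.80), which the bright probe placed level with replicates 1 and 2. The probes therefore had the high replicate in common and not the low one.

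Nfkb2 encodes p100, which holds RelB in the cytoplasm as an inhibitor and yields the subunit p52 when the non-canonical pathway cleaves it. Its signal was 2189, 1715, 2943 and 2737 in replicates 1 to 4. The level was 0.09 ± 0.20 (SD, n = 4). The range of 0.447 between replicates was the widest of the 6 members at gene level, while with normexp it was 0.491 and that of Rela was 0.513. Replicate 2 was low at -0.21, and the other replicates lay between 0.15 and 0.24. The highest replicate was 1.36 times the lowest with all 4 replicates and 1.06 times without replicate 2.

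Nfkbia encodes IkB alpha, the inhibitor that is degraded fastest on stimulation and whose gene is a classical NF-kB target. Its signal was 2660, 3006, 3348 and 3687 in replicates 1 to 4. The level was 0.52 ± 0.10 (SD, n = 4) and fell into a close pair of higher values, 0.60 in replicate 2 and 0.62 in replicate 4, and a close pair of lower ones, 0.43 in replicate 1 and 0.42 in replicate 3. The highest was 1.14 times the lowest, a range of 0.193 log2 units. This was the narrowest of the 6 members, but with normexp it was 0.347. That was wider than the normexp range of Nfkbib (0.261) and Nfkbie (0.311) and about that of Nfkb1 (0.346). Leaving out any 1 replicate left that ratio between 1.13 and 1.14.

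Nfkbib encodes IkB beta, which like IkB alpha retains RelA and c-Rel dimers. Its signal was 1106, 1045, 1391 and 1491 in replicates 1 to 4, with a level of -0.82 ± 0.10 (SD, n = 4) between -0.92 in replicate 2 and -0.69 in replicate 4. Replicates 1 and 3 lay together at -0.83 and -0.84. Nfkbie encodes IkB epsilon, an inhibitor produced in a delayed feedback that binds RelA and c-Rel dimers. Its signal was 607.2, 475.5, 618.6 and 620.1, and its level was -1.93 ± 0.16, highest in replicate 1 at -1.70 and from -2.06 to -1.95 in the other 3 replicates. Without replicate 1 the ratio of highest to lowest was 1.07 for Nfkbie, against 1.28 with it.

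**Figure D2:**
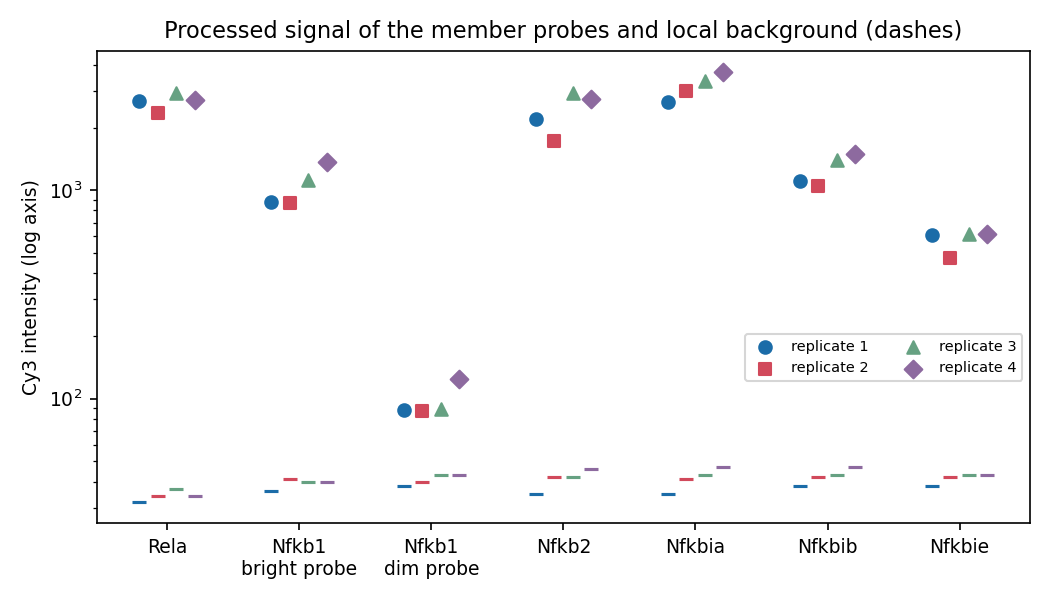
Processed Cy3 signal of the 7 member probes in each of the 4 replicates on a log axis, with the local background of each spot as a dash in the same colour. All probes lie above their background, and the dim Nfkb1 probe (86.92 to 123.6) is the closest to it.

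The spread between replicates was then tested for every gene. The SD of the 6 members ran from 0.0966 for Nfkbib to 0.204 for Nfkb2, with a median of 0.139 against 0.151 over all 8713 detected named genes. Of the detected genes, 31.0% had a larger SD than Nfkb2 and 75.1% a larger SD than Nfkbib. This median and these shares are over genes of every brightness, whereas the test that follows compares genes of similar brightness. None of the 6 members was called more spread than similarly bright genes (adjusted p from 0.969 for Nfkb2 to 0.99 for Nfkbib, limma residual variance test with Benjamini-Hochberg adjustment over 8713 genes). At an unadjusted p under 0.05 the same test also called 0 of the 6, with the lowest p at 0.143 for Nfkb2. Over all genes it called 1 gene after adjustment (0.0115%) and 375 before it (4.30%), so 0 of 6 is near the background. With 4 arrays, a member that this test did not call may still differ between cultures.

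**Figure D3:**
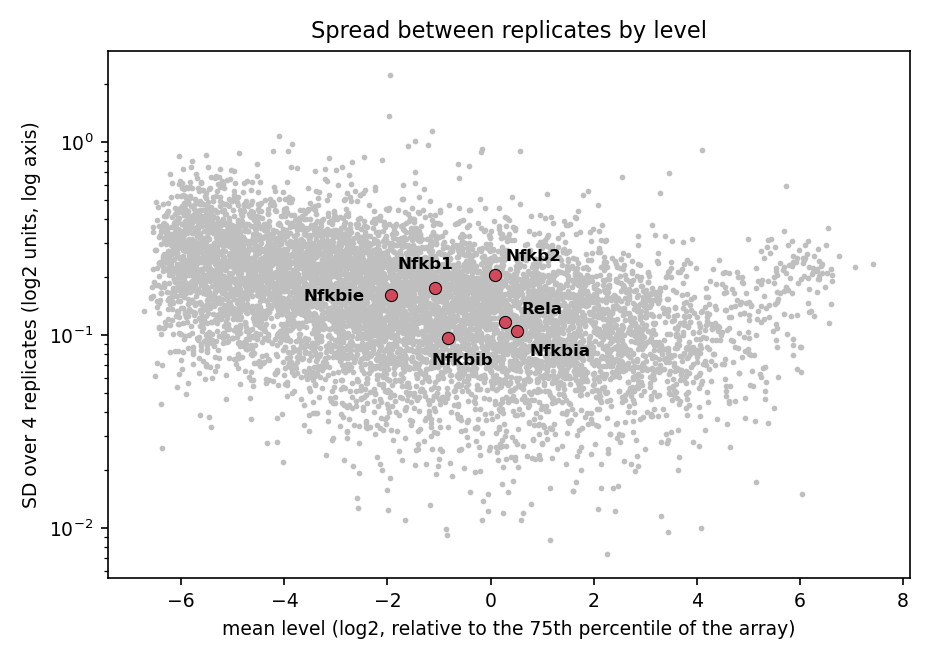
SD over 4 replicates on a log axis against the mean level for the 8713 detected named genes (grey) and the 6 measured members (red, each by its bright probe). The members lie inside the cloud, with Nfkb2 the highest at 0.204 and Nfkbib the lowest at 0.0966.

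A within-array reference for these SDs comes from probes printed several times, although each member probe was printed once. Over 1039 detected probes with at least 5 usable spots, the median SD of the spots of a probe was 0.0851, 0.0608, 0.0627 and 0.0788 log2 units in replicates 1 to 4. All 6 member SDs between arrays were above these values, and Nfkbib was the nearest to them. The SD between arrays holds spotting, labelling and culture together, and these parts were not separated.

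In no replicate were all 6 members above, or all 6 below, their own mean, and no test of a shared shift was run. The number of the 6 genes above their own mean was 3, 1, 1 and 4 in replicates 1 to 4. Over all detected genes the shares were 53.3%, 47.2%, 45.5% and 51.5%. The median deviation of the members was 0.02, -0.10, -0.06 and 0.10 log2 units in replicates 1 to 4, against 0.02, -0.01, -0.01 and 0.005 over all detected genes. Rela and Nfkbie were highest in replicate 1, Nfkb1, Nfkbia and Nfkbib in replicate 4, and Nfkb2 in replicate 3.

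Ratios of 2 members on the same array do not change when an array is scaled by 1 factor. The ratio of Nfkb1 to Rela, the genes of the canonical p50 and p65 pair, was lowest in replicate 1 and highest in replicate 4, with deviations from its mean of -0.26, -0.08, -0.03 and 0.36 log2 units and a ratio of highest to lowest of 1.54. It was 1.47 with quantile normalization and 1.65 with normexp background correction, with the same lowest and highest replicate. Nfkb2 against Nfkbia moved as far (1.54), with the low value of -0.38 in replicate 2. Rela against Nfkbie moved least of the 15 pairs (1.13). These pairs are given for their size, and no test was run on them.

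Neighbouring spots were read on the same arrays. Each member spot had 15 to 55 detected spots of other genes at most 5 rows and 5 columns away, and their median deviation from their own means lay between -0.06 and 0.09 log2 units. The neighbours of the bright Nfkb1 probe stood at 0.005 in replicate 4, where Nfkb1 deviated by 0.26, and those of Nfkb2 at -0.002 in replicate 2, where Nfkb2 deviated by -0.30. The neighbours of Nfkbie and Rela in replicate 1 stood at 0.09 and 0.08, where these genes deviated by 0.23 and 0.17. In replicate 1 the neighbours of all 7 probes were above their own means, and some neighbour shifts were as large as a small deviation of the member, as for Nfkb2 in replicate 1 (0.08 against 0.06) and Rela in replicate 3 (-0.06 against -0.04). The part of such local shifts in the members' values was not tested.

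**Figure D4:**
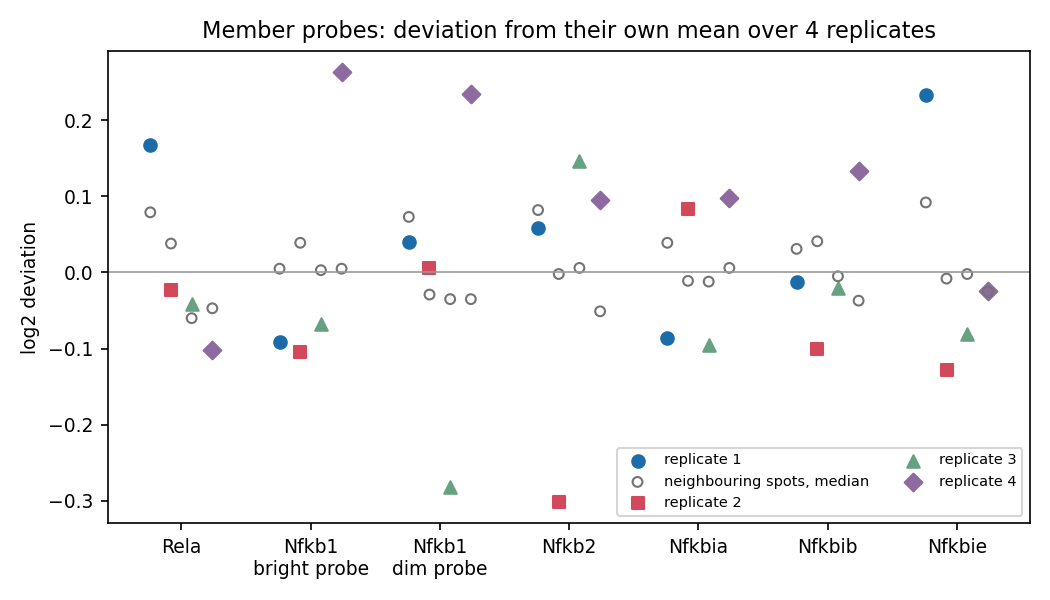
Log2 deviation of each member probe from its own mean over the 4 replicates (filled marks, 1 per replicate) and the median deviation of detected neighbouring spots from theirs (open circles). Nfkb1 stands high in replicate 4 by both probes (0.26 and 0.24), Nfkb2 low in replicate 2 (-0.30), and the neighbours stay between -0.06 and 0.09.

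The genes of the other pathway lists were also examined, and none was called variable after adjustment by limma over all genes. At an unadjusted p under 0.05, where 4.30% of all genes were called, the same test called 0 of 14 detected signalling genes, 0 of 12 ubiquitin genes, 2 of 7 cofactors (Bcl3 and Crebbp) and 7 of 16 targets. Of the 11 detected macrophage markers it called 1, Itgam. The lists were drawn up with earlier results of these data known, so these counts do not test whether a list varies more than other genes. Of 18 genes that carry the signal to IKK, 15 were measured and 14 (93.3%) were well above background on all arrays, where 52.5% of named genes were. The 3 genes of the IKK complex itself were among them: the kinase genes Chuk (level -2.66 ± 0.17, SD, n = 4) and Ikbkb (-1.40 ± 0.08) and the regulatory subunit gene Ikbkg, or NEMO (-0.72 ± 0.11). Irak4, a kinase recruited through MyD88 downstream of interleukin-1 and Toll-like receptors, was the exception and was well above background on 3 arrays.

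Of 15 genes for the ubiquitin steps, which build and remove the chains that activate IKK and mark IkB, 13 were measured and 12 (92.3%) detected. Among them were the deubiquitinase genes Cyld (-3.84 ± 0.15, SD, n = 4), Otulin (0.73 ± 0.21) and Otud7b (-5.02 ± 0.28), and the exception was the ligase gene Itch, on 1 array. Of 10 nuclear cofactors, 7 were measured and 7 detected. They included Bcl3, an IkB-like protein that works with p50 and p52 in the nucleus (-2.07 ± 0.37), the acetyltransferase gene Crebbp (-1.48 ± 0.38) and Pdlim2, whose product promotes degradation of nuclear p65 (0.08 ± 0.15). By the brightest probe, a single array carried much of the spread of these 3 genes. The SD of Bcl3 was 0.102 without replicate 2, and that of Crebbp 0.114 and of Pdlim2 0.0217 without replicate 1. For Pdlim2 this rests on the probe: by the mean over its detected probes the SD was 0.0368 with all replicates.

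Of 25 NF-kB target genes, 16 (64.0%) were detected on all arrays, where 52.5% of named genes were. No probe was well above background on any array for 6 of them: Il6, Cxcl1, Vcam1, Ptgs2, Birc3 and Traf1. The count of detected targets was 17 with outlier flags kept, with detection on at least 3 arrays or without replicate 1. It was 19 under the flag for positive and significant signal. Cxcl10 was well above background on 3 arrays, at levels of 0.57, 0.34 and 0.23 in replicates 2 to 4. In replicate 1 the outlier flags left it no usable spot, so it counted as not detected. The first of the list, Tnf, was at 1.46 ± 0.37 (SD, n = 4), Il1b at 1.42 ± 0.28 and Il1a at -0.64 ± 0.16, all 3 being genes of inflammatory cytokines. The median SD of the 16 detected targets was 0.233, against 0.139 for the members and 0.151 for all detected genes. The median deviation of the targets was -0.06, -0.08, 0.12 and 0.07 in replicates 1 to 4, and 7, 6, 12 and 11 of the 16 were above their own mean. The targets did not all go the same way: Tnf was highest in replicate 3 (1.80) and lowest in replicate 2 (1.02), and Il1b was highest in replicate 2 (1.68) and lowest in replicate 4 (1.16). The targets past the unadjusted threshold were Tnf, Il1b, Ccl2, Ccl4, Cxcl2, Icam1 and Lcn2, of which those after Il1b were named after their values were seen. All of these but Lcn2 set replicates 1 and 2 apart from replicates 3 and 4, the brighter arrays. Tnf, Ccl4, Cxcl2 and Icam1 (1.35 and 1.33 against 2.27 and 2.25) were higher in replicates 3 and 4, and Il1b and Ccl2 lower. Lcn2 was at 4.5 in replicate 1 and from 3.06 to 3.22 in the others. What lies behind this split of the arrays was not tested. No test of these lists against each other was made.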

How the data were processed

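Total RNA of 4 exposed NR8383 cultures was hybridised to one-colour Agilent rat arrays. Per the file headers and the submitters' processing notes, the authors extracted each spot with Agilent Feature Extraction 11.0.1.1, and the deposited intensity is the background-corrected processed signal; the sources used here give no step between arrays. The file headers name an older rat build (rn4), so probe positions are not given.

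Control spots (4259 per array) and spots with an outlier flag were left out; no spot was saturated. The log2 values of repeated spots were averaged. Detection required Agilent's well-above-background flag on the majority of a probe's spots on all 4 arrays; 39.3% of the probes passed, and levels were scaled to the 75th percentile over them. Accessions were matched without versions to RefSeq transcripts (GRCr8), naming 21109 probes. A gene took its brightest probe, detected ones first, and was detected if any of its probes was; different probes of Nfkb1 are given apart. The residual variance of an intercept fit was tested with limma 3.58.1 (R 4.3.3, with the package data.table in version 1.17.8) with an intensity trend, at an adjusted p of 0.05 over 8713 genes. A check on simulated data required calls for genes of a far larger spread and few calls for genes without one. It does not show that a small excess of spread would be called. Figures used matplotlib 3.10.9 (Python 3.11.15).

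The members, lists and tests were chosen with earlier results of these data known. Named are all members, the first 3 measured genes of each other pathway list and of the macrophage list, list members that go against most of their list in detection where these are 5 or fewer, and any variable one; epithelial, lymphocyte, fibroblast, endothelial and neutrophil markers are given as counts. Some NF-kB targets, macrophage markers and genes outside the lists are named besides these, after their values were seen. The consensus and its looser form were kept after the promoters had been searched with other spellings too. Alternatives were other detection rules, scalings, background correction (normexp, offset 50, on the median spot signal), outlier flags, probe rule, dim areas, filter, variance model, and leaving out each replicate. The arrays lay on 1 slide, so array position and replicate cannot be told apart.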

Additional observations from a re-analysis of the deposited data

Results flagged for a closer look

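Of 21 sets of 4 replicate values, 3 had 1 replicate far from the others by the ratio of gap to range, where chance gives about 1 in 20. The bright Nfkb1 probe had a ratio of 0.8995, with replicate 4 at -0.82 above -1.17, -1.18 and -1.15; the dim Nfkb1 probe was also highest in replicate 4. Ikbkb had a ratio of 0.9535, with replicate 3 at -1.29 against -1.44, -1.44 and -1.45. Pdlim2 had a ratio of 0.8665, with replicate 1 at 0.30 against -0.01, 0.00 and 0.03. It has 3 probes, and with the mean over the detected ones its SD was 0.0368, against 0.146 for the brightest, so the departure of replicate 1 rests on the probe chosen.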

How the results depend on the processing

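The count of 6 members detected was the same under 2 other detection rules, with outlier flags kept, with dim areas left out and without each replicate. No member was variable in any of 13 alternative fits, with the lowest adjusted p of a member between 0.798 and 0.991 (limma); at an unadjusted p under 0.05 the count was 1 without replicate 1 (Nfkb2) and 0 in the others. The number of members above their own mean in replicate 3 was 2 with the 75th percentile over all probes, against 1. Leaving out replicates gave 2 to 4 members above their mean in replicate 1, 1 to 2 in replicate 2, 1 to 3 in replicate 3 and 3 to 5 in replicate 4; in replicate 1 the count was 4 under each of 3 other scalings, against 3. Under the flag for positive and significant signal, 1 epithelial and 2 fibroblast and endothelial markers were detected, against 0. No member spot lay in a dim area. Nfkb1 stayed highest in replicate 4, Nfkb2 lowest in replicate 2 and Rela and Nfkbie highest in replicate 1 under each of 3 other scalings and normexp. Nfkbia changed its highest replicate with the scaling, Nfkb2 its highest with normexp, and with normexp the SD of Nfkbia was 0.171 and of Rela 0.211. Levels shift with the reference they are scaled to and with the probe rule: with the mean over detected probes Nfkb1 was at -2.80, Tnf at -1.22, Otulin at -2.63, Crebbp at -3.64 and Pdlim2 at -1.84. No paired analysis was possible because there is 1 group. The arrays' number, and 1 spot per member probe, limit the precision.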
